A study of Homo sapiens with 6 samples.

Results

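The extrinsic pathway of coagulation and the receptors its proteases cleave were described in SW620 cells through 9 genes: F7 and F10, which encode coagulation factors VII and X; F3, which encodes tissue factor; TFPI and TFPI2, which encode Kunitz-type inhibitors; and F2R, F2RL1, F2RL2 and F2RL3, which encode the protease-activated receptors. The 9 genes were taken by symbol from a table of 60605 genes, and each had 1 row. They were chosen with earlier results of the same comparison known, F7 because it was lower and F2RL1 because it was higher. The changes of the 9 genes are therefore given as descriptions, without p-values.

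Tissue factor is a transmembrane protein that binds factor VIIa, and the complex activates factor X. Factor VII and factor X are vitamin K dependent serine proteases made mainly by the liver, and their transcripts are also found in some tumour cells. Protease-activated receptors are G protein coupled receptors whose amino terminus is cut by a protease, which exposes a tethered ligand. Thrombin is the best known activator of the receptors encoded by F2R, F2RL2 and F2RL3, whereas trypsin, other trypsin-like proteases and the complex of tissue factor with factor VIIa cleave the receptor encoded by F2RL1, known as PAR2.

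SW620 is an established human colorectal cancer line. The cells of 3 libraries carried the lentiviral construct pLVX-IRES-Puro-ELAPOR1, which drives ELAPOR1, a transmembrane protein of endosomes and lysosomes, and the cells of the other 3 libraries carried the empty vector. Both groups were infected at a multiplicity of 20 with virus packaged in HEK293T cells, both underwent puromycin selection at 2 ug/ml, with 10% serum in the medium. The labels say neither whether the libraries of a group came from separate infections or cultures nor whether the selected cells were clones, so the spread between libraries may be technical. Library totals lay between 16457436 and 19268166 counts in ELAPOR1 cells and between 16401813 and 20571924 counts in vector cells. ELAPOR1 itself stood at 21126 ± 362 CPM (counts scaled to library size with TMM factors) in ELAPOR1 cells and 10.4 ± 1.47 CPM in vector cells (SD, n = 3 each), in the direction of the labels. The epithelial markers EPCAM, KRT8, KRT18 and VIL1 were abundant, and the summed level of 12 colon epithelium markers was 7855 to 7869 CPM in ELAPOR1 cells and 8439 to 8833 CPM in vector cells. Of the 11 tested, 5 were called lower, namely CDH1 (244 CPM in ELAPOR1 cells and 414 CPM in vector cells, log2 fold change -0.76), KRT19 (-0.45), CDX2 (-0.56), KRT8 (-0.14) and KRT20 (-1.67), and CDH17 was called higher (1.05). Of all tested genes, 11.4% were called lower and 10.0% higher (edgeR, adjusted p under 0.05). The part of the colon epithelium markers in the results was not tested. The intestinal markers CDX1, KRT20, LGALS4 and GPA33 were low, with mean levels between 0.0174 and 1.03 CPM in ELAPOR1 cells and between 0.0341 and 2.20 CPM in vector cells.

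F7 was lower and F2RL1 higher in ELAPOR1 cells, while the other genes on either side of them in the pathway, F3 and F10, were not called. Of the 9 genes, 6 had enough counts to be tested and 3 did not. In a comparison across all 16003 tested genes (edgeR, adjusted p under 0.05), 1 of the 6 was called higher, where 10.0% of all tested genes were, and 1 was called lower, where 11.4% were. In either direction 2 of the 6 were called, against 21.4% of all tested genes. Since the genes were chosen from this comparison, nothing is read from these shares.

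**Figure D1:**
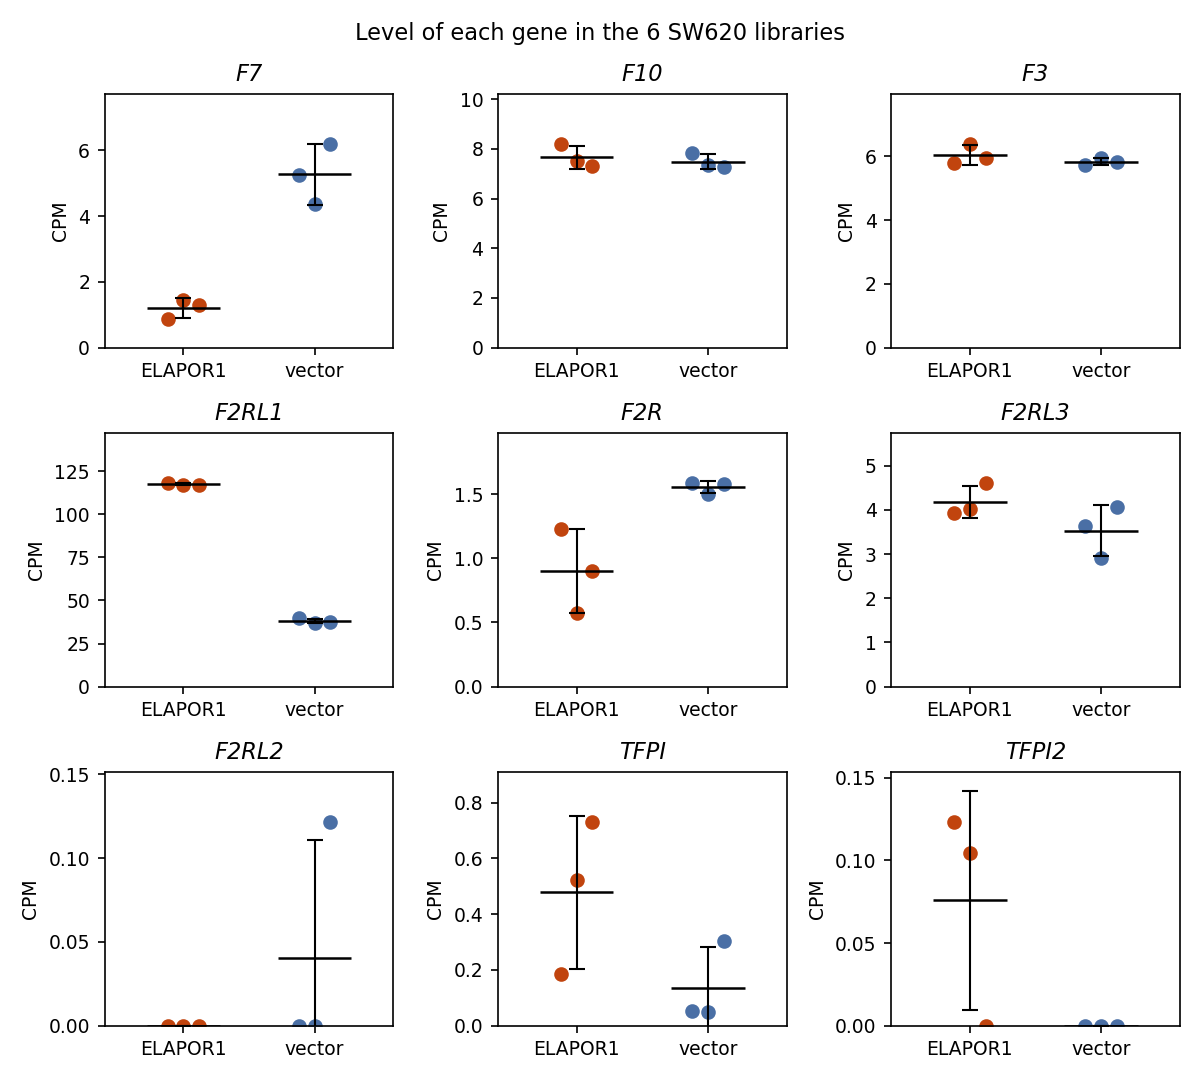
Level in CPM of each of the 9 genes, with ELAPOR1 libraries on the left and vector libraries on the right of each panel; points are libraries, long bars are means and whiskers are 1 SD (n = 3). F7 is low and F2RL1 high in the 3 ELAPOR1 libraries, and the other panels show overlapping groups except that of F2R; each panel has its own scale from 0.

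F7 lies on GRCh38 chromosome 13, from 113105788 to 113120685 on the plus strand (ENSG00000057593). It had 14, 28 and 23 counts in the ELAPOR1 libraries and 103, 90 and 102 counts in the vector libraries. Scaled, this was 0.861, 1.46 and 1.29 CPM in ELAPOR1 cells, against 5.26, 4.36 and 6.19 CPM in vector cells. All 3 ELAPOR1 libraries lay below all 3 vector libraries, and the highest ELAPOR1 library was under the lowest vector library by a wide margin. The log2 fold change was -2.10 (standard error 0.263), so the level was 4.30-fold higher in vector cells. Of the 16003 tested genes, 18, F7 included, had a log2 fold change that low. Because F7 was chosen for its fall, nothing is read from this rank.

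F10 begins 2114 bases after the end of F7 on the same strand (113122799 to 113149529, ENSG00000126218), and its level did not follow that of F7. It had 8.18, 7.52 and 7.29 CPM in ELAPOR1 cells and 7.82, 7.36 and 7.28 CPM in vector cells, and the groups overlapped almost completely. The log2 fold change was 0.03, with a 95% interval from -0.26 to 0.33. Per length, F7 had 0.0645, 0.121 and 0.111 times the FPKM (counts scaled to exonic length and library total) of F10 in ELAPOR1 cells, and 0.422, 0.369 and 0.531 times in vector cells. F10 overlaps KARS1P2 on the same strand, and F10-AS1 and a gene without a symbol on the other strand. Reads of KARS1P2 and F10 cannot be told apart where they overlap. The strand setting of the counting was not available here, so the same holds for F10-AS1 and the gene without a symbol. F10-AS1 averaged 0.112 CPM in ELAPOR1 cells and 0.0865 CPM in vector cells, and KARS1P2 averaged 0.132 CPM in ELAPOR1 cells and 0.103 CPM in vector cells. The gene without a symbol averaged 1.31 CPM in ELAPOR1 cells and 1.2 CPM in vector cells.

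The 250 bases before the RefSeq start of F7 and of F10 and those of F2RL1 are shown because 2 of the 3 genes changed in opposite directions and the third lies beside F7 without its change. They are RefSeq sequences of GRCh38.p14, plus strand, chr13:113105541-113105787 for F7, chr13:113122549-113122798 for F10 and chr5:76818780-76818932 for F2RL1, cut where the deposited annotation starts the gene. Capitals mark ACTTTG, a half-site of the liver-enriched factor HNF4A, and GGGCGG, a GC box bound by SP1, or their reverse complements.
F7: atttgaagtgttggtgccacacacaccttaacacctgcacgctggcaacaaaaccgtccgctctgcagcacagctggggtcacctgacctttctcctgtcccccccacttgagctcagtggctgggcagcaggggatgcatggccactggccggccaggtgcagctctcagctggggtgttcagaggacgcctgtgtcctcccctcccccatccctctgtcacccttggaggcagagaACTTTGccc
F10: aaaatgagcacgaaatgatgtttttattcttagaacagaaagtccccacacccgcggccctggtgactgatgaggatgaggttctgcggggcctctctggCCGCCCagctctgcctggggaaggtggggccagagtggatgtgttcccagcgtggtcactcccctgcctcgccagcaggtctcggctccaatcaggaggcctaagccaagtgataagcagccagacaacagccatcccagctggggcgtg
F2RL1: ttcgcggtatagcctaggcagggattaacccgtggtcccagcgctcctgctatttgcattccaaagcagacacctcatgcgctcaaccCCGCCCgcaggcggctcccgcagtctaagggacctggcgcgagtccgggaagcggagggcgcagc
The ACTTTG of F7 begins 12 bases before the RefSeq start on the plus strand. In the 250-base windows this motif was found on either strand in 10.3% of 35116 RefSeq promoters, and F7 was the only 1 of the 8 genes with a promoter entry that held it. GGGCGG was found in 42.6% of all promoters. It was absent from the window of F7, present once in that of F10 and present in 2 places in that of F2RL1, of which the printed stretch holds 1. Neither TGANTCA (AP-1), ACGTG (hypoxia-inducible factors) nor TATAAA was found in the windows of these 3 genes, where 6.57%, 18.5% and 10.7% of all promoters held them. These matches describe the letters of the windows and say nothing of binding. HNF4A, which lies outside the rule for named genes and is given for its motif, had 158 ± 3.41 CPM in ELAPOR1 cells and 163 ± 10.7 CPM in vector cells (SD, n = 3 each), at a log2 fold change of -0.04 (edgeR adjusted p 0.549).

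The genes around F7 did not show its change. Of 18 tested genes within 500 kb, 3 were called higher and 1 lower, with a median log2 fold change of 0.02, against a median of 0.00 over all tested genes and 21.4% called. The genes called, named here after their values were seen, were LAMP1, which encodes a lysosomal membrane protein, at 0.15, GRTP1 at 0.31, a gene without a symbol at 0.96, and TMCO3 at -0.32. MCF2L, the nearest tested gene on the other side of F7, was at -0.09 on the log2 scale (edgeR adjusted p 0.233). The call of GRTP1 was lost without ELAPOR1 replicate 1, ELAPOR1 replicate 3 or vector replicate 3, at adjusted p of 0.12, 0.127 and 0.21 by edgeR.

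**Figure D2:**
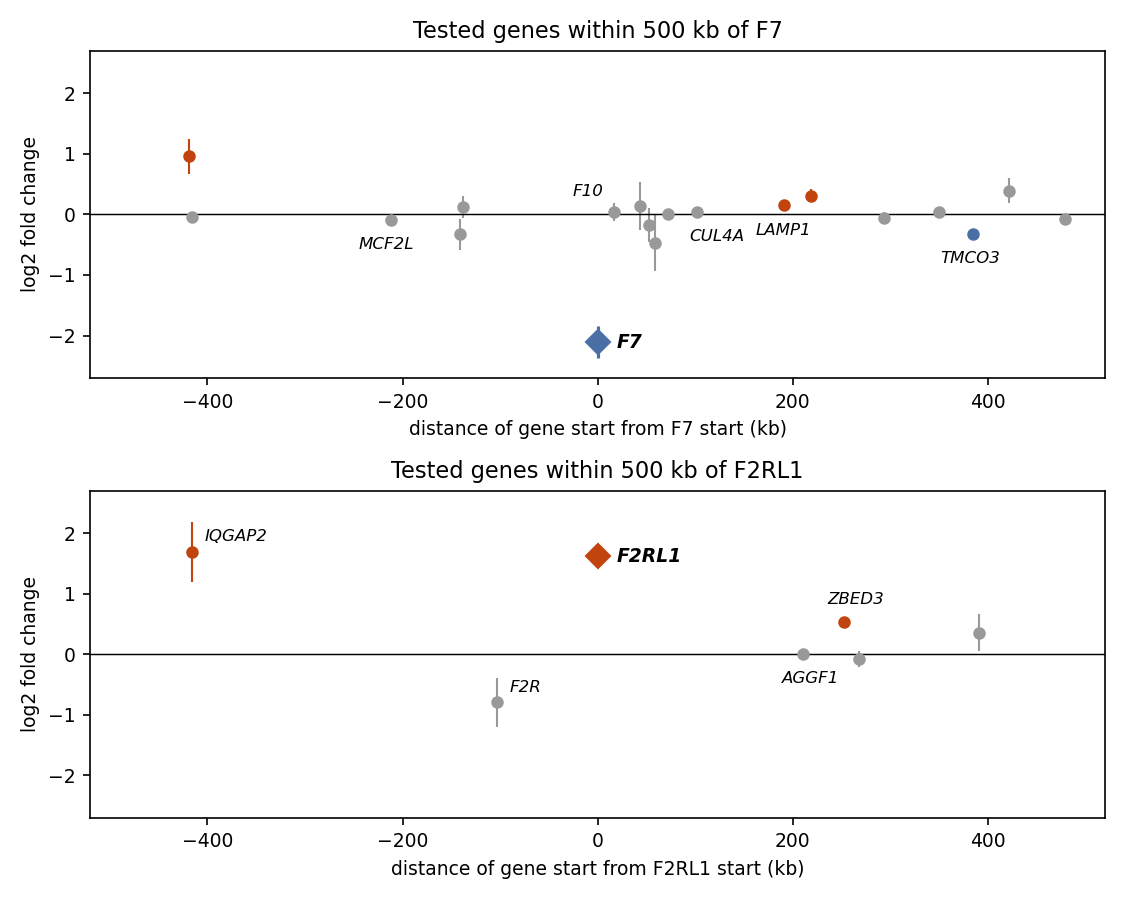
Log2 fold change (ELAPOR1 over vector) of tested genes within 500 kb of F7 (upper panel) and of F2RL1 (lower panel) against the distance between gene starts in kb. Whiskers are 1 standard error; orange marks genes called higher, blue genes called lower and grey genes not called. F7, at -2.10, stands alone among its neighbours, and F2RL1, at 1.62, has IQGAP2 at 1.69 in the same window.

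Factor VII is known mainly as a liver protein, so hepatocyte markers were read beside it. None of 8 hepatocyte markers passed the count filter, and APOC3, TTR and AHSG had no count in any library. Their summed level was 0 to 0.449 CPM in ELAPOR1 libraries and 0.242 to 1.33 CPM in vector libraries, which is near 0 in both.

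F3, the gene of tissue factor (chromosome 1, 94529173 to 94541759, minus strand, ENSG00000117525), was close to level between the groups. It had 5.78, 6.37 and 5.95 CPM in ELAPOR1 cells and 5.72, 5.96 and 5.82 CPM in vector cells. The vector libraries lay inside or just below the range of the ELAPOR1 libraries. Its log2 fold change was 0.05, with a 95% interval from -0.29 to 0.39, so changes of the size of that of F7 lie outside the interval.

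The inhibitor genes were near the limit of detection. TFPI, whose product inhibits factor Xa and the tissue factor complex (chromosome 2, 187464230 to 187565760, minus strand), had 3, 10 and 13 counts in ELAPOR1 libraries and 1, 1 and 5 counts in vector libraries. The groups overlapped, since vector replicate 3 had more counts than ELAPOR1 replicate 1. The ratio of summed counts, 26 in ELAPOR1 cells and 7 in vector cells, was 3.90 after scaling by library totals, with an exact 95% interval from 1.65 to 10.6 that covers counting error only. TFPI did not pass the count filter, and with no filter it was tested at a log2 fold change of 1.86 and not called. Without vector replicate 3 it passed the filter and was called, at a log2 fold change of 3.12, so that 1 library decides its call. TFPI overlaps a gene without a symbol on the other strand, which had no count in any library. TFPI2, whose product is a matrix-associated inhibitor of plasmin and other serine proteases, had 2, 2 and 0 counts in ELAPOR1 libraries and none in the vector libraries, where a count of 0 allows up to 0.0532 CPM over the group. TFPI2 lies within the span of GNGT1 on the other strand, which had 19 to 21 counts in ELAPOR1 libraries and 24 to 41 in vector libraries.

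F2RL1 was the most abundant of the 9 genes and rose in ELAPOR1 cells (chromosome 5, 76818933 to 76835315, plus strand, ENSG00000164251). It had 1917, 2240 and 2086 counts in the ELAPOR1 libraries and 777, 766 and 620 counts in the vector libraries. Scaled, these were 118, 117 and 117 CPM in ELAPOR1 cells, against 39.7, 37.1 and 37.6 CPM in vector cells. In bulk libraries, a change in the share of cells with a transcript and a change in its level per cell cannot be told apart, here as for F7. The 3 ELAPOR1 libraries differed from each other by less than 1 CPM and lay far above all vector libraries. So small a spread over 3 libraries is not read as precision. The log2 fold change was 1.62 (standard error 0.0526), a 3.08-fold higher level in ELAPOR1 cells. Of all tested genes, 93, F2RL1 included, had a log2 fold change at least that high. Nothing is read from this rank either, since F2RL1 was chosen for its rise.

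F2R, the gene of the thrombin receptor PAR1 (chromosome 5, 76716126 to 76735770, ENSG00000181104), lies 83163 bases from F2RL1 and did not share its call. It had 1.23, 0.574 and 0.898 CPM in ELAPOR1 cells and 1.58, 1.5 and 1.58 CPM in vector cells. The groups did not overlap, as was true of 3 of the 6 tested genes (F7, F2RL1 and F2R) and of 33.8% of all tested genes. The counts were few, 20, 11 and 16 in ELAPOR1 libraries and 31, 31 and 26 in vector libraries. The log2 fold change was -0.80, with a 95% interval from -1.60 to 0.01, and the gene was not called. It ranged from -1.08 to -0.55 when 1 library was left out, with no call in any of these fits.

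F2RL3, the gene of PAR4, the lower-affinity thrombin receptor of platelets (chromosome 19, 16888999 to 16892606, ENSG00000127533), had 3.94, 4.02 and 4.60 CPM in ELAPOR1 cells and 3.63, 2.91 and 4.06 CPM in vector cells. The highest vector library lay between the ELAPOR1 libraries, so the groups overlapped. The log2 fold change was 0.25, with a 95% interval from -0.18 to 0.68. F2RL2, the gene of PAR3, a thrombin-binding co-receptor (chromosome 5, 76615482 to 76623413), had no count in the ELAPOR1 libraries, which allows up to 0.0559 CPM over the group, and 0, 0 and 2 counts in the vector libraries. Markers of other cell types, platelets and endothelium among them, were read as well, and their part in the result was not tested. The summed level of 6 platelet markers was 4.83 to 6.74 CPM in ELAPOR1 cells and 4.43 to 5.28 CPM in vector cells. GP9, PF4 and PPBP were at 0. GP1BA held most of the sum, at 5.50 CPM in ELAPOR1 cells and 4.89 CPM in vector cells, and was not called. The sum of 8 endothelial markers was 2.21 to 2.86 CPM in ELAPOR1 cells and 2.81 to 3.76 CPM in vector cells, with CDH5, KDR and TEK at 0. That of 6 monocyte and leukocyte markers was 8.08 to 8.98 CPM in ELAPOR1 cells and 5.96 to 9.04 CPM in vector cells. Of these markers, 1 of 6 for platelets, 2 of 8 for endothelium and 4 of 6 for monocytes and leukocytes passed the count filter. None of those tested was called, where 21.4% of all tested genes were. Fibroblast markers, 6 in number and 3 of them tested, summed to 24.9 to 30.1 CPM in ELAPOR1 cells and 17.4 to 18.8 CPM in vector cells. LUM held most of this sum, at 23.4 CPM in ELAPOR1 cells and 14.9 CPM in vector cells. It was called higher, at a log2 fold change of 0.64.

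**Figure D3:**
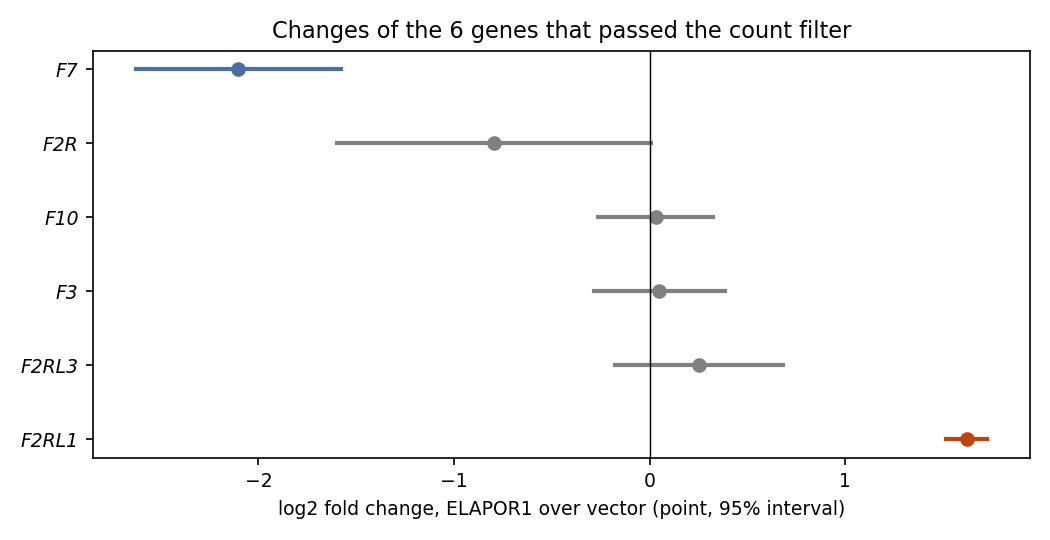
Log2 fold change (ELAPOR1 over vector) of the 6 genes that passed the count filter; points are estimates, lines 95% intervals, with blue for the gene called lower and orange for the gene called higher. The intervals of F7 and F2RL1 lie on opposite sides of 0, and those of F2R, F10, F3 and F2RL3 include 0.

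F2R, F2RL1 and F2RL2 lie within 500 kb of each other on chromosome 5. Of 6 tested genes within 500 kb of F2RL1, 2 were called higher and none lower, where 10.0% of all tested genes were called higher and 11.4% lower. Their median log2 fold change was 0.18, against 0.00 over all tested genes. In the window of F2R, whose 6 tested genes include F2RL1, 3 were called higher and none lower, with a median of 0.44. These 3 were F2RL1, which was chosen for its rise, and the 2 genes called in its window, IQGAP2 and ZBED3. Nothing is read from the counts or medians of these windows. IQGAP2, a scaffold protein gene whose span holds F2RL2 on the other strand, had 24, 25 and 18 counts in ELAPOR1 libraries and 9, 8 and 5 counts in vector libraries. Its log2 fold change was 1.69 (edgeR adjusted p 0.00736), and the call was lost without ELAPOR1 replicate 1, at an adjusted p of 0.0528. ZBED3, a regulator of Wnt signalling named after its values were seen, rose by 0.53. AGGF1, the nearest tested gene beyond F2RL1, was at 0.01 on the log2 scale (edgeR adjusted p 0.953).

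The make-up of the receptor transcripts shifted toward F2RL1 within a pool that was already mostly F2RL1. Summed over the 4 receptor genes, FPKM was 41.1 ± 0.114 in ELAPOR1 cells and 14.6 ± 0.60 in vector cells (SD, n = 3 each). F2RL1 made up 96.4% ± 0.298 of this sum in ELAPOR1 cells and 89.9% ± 1.27 in vector cells. F2RL3 made up 3.03% ± 0.261 in ELAPOR1 cells and 7.31% ± 1.11 in vector cells, and F2R made up 0.542% ± 0.205 in ELAPOR1 cells and 2.7% ± 0.0562 in vector cells. These shares are set by the levels above and are no separate measurement.

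**Figure D4:**
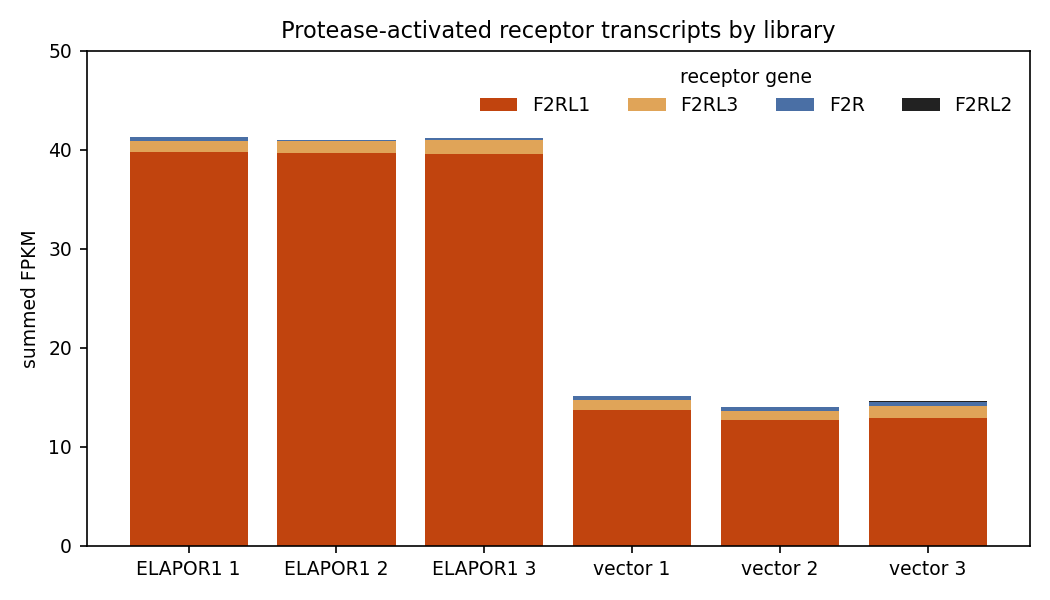
Summed FPKM of the 4 protease-activated receptor genes in each library, ELAPOR1 libraries on the left, stacked by gene from F2RL1 at the bottom to F2RL2 at the top. The ELAPOR1 libraries reach 41.0 to 41.2 FPKM and the vector libraries 14.0 to 15.2 FPKM, and F2RL1 fills nearly the whole bar in each.

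Per length, the order of the genes in ELAPOR1 cells was F2RL1 (39.7 ± 0.085 FPKM), F10 (3.20 ± 0.186), F3 (2.07 ± 0.108), F2RL3 (1.2 ± 0.108), F7 (0.313 ± 0.0833) and F2R (0.223 ± 0.085), with SD over 3 libraries. In vector cells it was F2RL1 (13.1 ± 0.503 FPKM), F10 (3.18 ± 0.125), F3 (2.03 ± 0.0351), F7 (1.40 ± 0.245), F2RL3 (1.07 ± 0.182) and F2R (0.393 ± 0.0115). The libraries of neighbours in this order did not overlap, except F7 and F2R in ELAPOR1 cells and F7 and F2RL3 in vector cells. F7 thus stood between F3 and F2RL3 in vector cells and beside F2R in ELAPOR1 cells. F2RL1 had 181, 104 and 116 times the FPKM of F7 in ELAPOR1 libraries, against 9.76, 11.1 and 7.87 times in vector libraries. TFPI, TFPI2 and F2RL2 were at most 0.06 FPKM in every library.

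In the authors' deposited table, whose fit was made on the same libraries, the log2 fold change of F7 was -2.11 (standard error 0.28) and that of F2RL1 was 1.62 (standard error 0.0527). Both were called there, and F2R, F2RL3, F3 and F10 were not. TFPI, TFPI2 and F2RL2 carried no adjusted p in that table.

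The genes whose pattern over the 6 libraries was most like that of F7, by the root mean square difference in log2 CPM after centring on the vector mean, were RIN2 (0.21), TUBB2B (0.25), ALDH1A2 (0.43), UNC5B (0.44) and BAHCC1 (0.45), out of 10273 protein-coding genes of at least 5 CPM. RIN2 encodes a Rab5 exchange factor and had 3.66 CPM in ELAPOR1 cells and 15.9 CPM in vector cells, and ALDH1A2, which encodes a retinaldehyde dehydrogenase, had 2.28 CPM in ELAPOR1 cells and 8.35 CPM in vector cells. The genes most like F2RL1 were SERPINA1 (0.11), SFRP5 (0.15), MMP7 (0.15), GNE (0.16) and AKR1C1 (0.17). MMP7, which encodes matrilysin, had 13.6 CPM in ELAPOR1 cells and 4.60 CPM in vector cells. TUBB2B and AKR1C1 have close copies and are uncertain where reads match more than 1 of them.

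The other genes of coagulation, receptor cleavage and receptor signalling were counted from 10 lists. Of 152 genes listed once each, 116 were tested, 18 were called higher and 32 lower, with a median log2 fold change of -0.05. The share called, 43.1%, compares with 21.4% of all tested genes, whose median was 0.00. Expression level was not matched in this comparison, and the lists were chosen with earlier results of these data known. Nothing is therefore read from this share or from the counts per list below. The rule for named genes took 34 of the genes called, of which 20 stayed called in every fit that left out 1 library; the other 14 are named with the alternatives.

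Among 23 coagulation factors and plasma inhibitors 10 were tested, of which 2 rose and 1 fell. F5, the gene of the cofactor factor V, rose to 12.3 ± 0.713 CPM in ELAPOR1 cells, against 6.93 ± 0.426 CPM in vector cells (SD, n = 3 each), a log2 fold change of 0.82 (edgeR adjusted p 9.06e-07). PROS1, the gene of protein S, rose by 0.37, and F13A1, the gene of the fibrin-crosslinking factor XIII A chain, fell by 1.38 on the log2 scale. The prothrombin gene F2 did not pass the filter, and F9, F11, F13B and KNG1 had no count in any library. Of 9 tested genes of plasminogen activation 6 fell and 1 rose. SERPINE2, which encodes the thrombin and urokinase inhibitor nexin-1, fell by 0.86, while PLAU, which encodes urokinase, rose by 0.60. Of 5 genes of gamma-carboxylation and propeptide processing, which factors VII and X need, VKORC1, the vitamin K epoxide reductase gene, fell by 0.67 and the other 4, GGCX, VKORC1L1, FURIN and CALU, were not called.

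Of 10 tested proteases known to cleave protease-activated receptors 1 rose and 1 fell. TMPRSS2, a transmembrane serine protease gene, rose by 0.33, to 57.2 CPM in ELAPOR1 cells against 45.4 CPM in vector cells. The matriptase gene ST14, named after its values were seen as the most abundant of them, had 202 CPM in ELAPOR1 cells and 205 CPM in vector cells, with an adjusted p of 0.751. Of 10 tested serine protease inhibitors 1 rose and 3 fell. SERPINA1, which encodes alpha-1 antitrypsin and was also the gene most like F2RL1, rose to 50.3 ± 1.38 CPM in ELAPOR1 cells, against 14.9 ± 1.17 CPM in vector cells, a log2 fold change of 1.75 (edgeR adjusted p 1.15e-29).

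Of 21 tested genes that couple the receptors to G proteins, phospholipase C, arrestins and kinases 3 rose and 8 fell. GRK3, a receptor kinase gene, rose by 1.76, while ARHGEF1, a G12/13-regulated exchange factor gene, GRK5 and GNA12 changed by -0.39, -0.40 and -0.27. Of 16 trafficking and sorting genes 2 rose and 2 fell, with TMED2, which binds PAR2 at the Golgi, at -0.14. Of 14 tested transcripts known to follow receptor activation 4 rose and 3 fell. CXCL8, the interleukin-8 gene, fell to 24.0 ± 0.903 CPM in ELAPOR1 cells, against 39.2 ± 2.22 CPM in vector cells (log2 fold change -0.71, adjusted p 1.64e-11). ICAM1 and CXCL1 were called higher, at 0.83 and 0.35, and CSF1 lower, at -1.26. Each of these calls was lost in at least 1 fit that left out 1 library. Of 13 transcription factors known to act at the F7 or F3 promoter 1 rose and 4 fell, among them HIF1A at -0.20. Of 10 tested partners of tissue factor 3 rose, among them EPHB2 at 0.51 and ITGB4 at 0.29, and 4 fell, among them SDC4 at -0.82 and P4HB at -0.26.

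**Figure D5:**
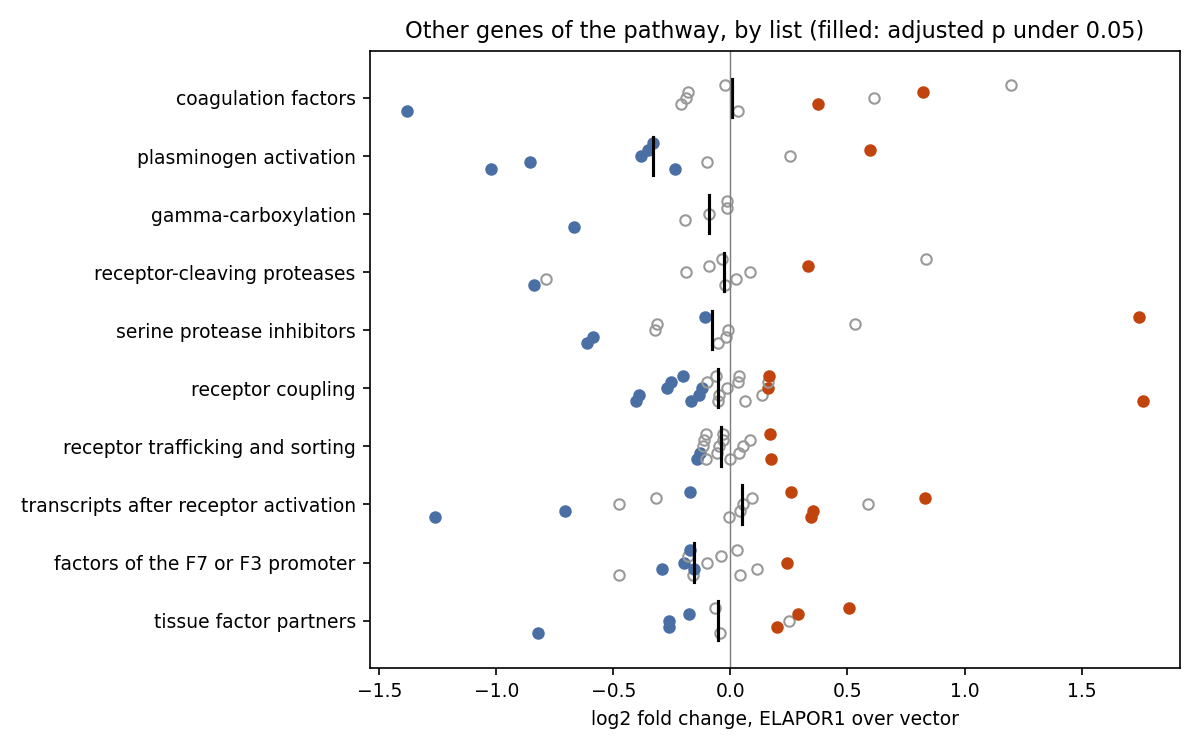
Log2 fold change (ELAPOR1 over vector) of each tested gene of the 10 lists; filled orange points were called higher, filled blue points lower, open points were not called, and black bars are list medians. The plasminogen activation list has the lowest median, -0.33, and SERPINA1 and GRK3 are the points at 1.75 and 1.76.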

How the data were processed

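RNA of 6 SW620 libraries, 3 per group, was read as a table of gene counts. Per the submitters' processing notes, cutadapt 1.9.1, HISAT2 2.0.1, HTSeq 0.6.1 and DESeq2 were used with GRCh38. The deposited counts are whole reads per gene, not normalized, and the authors' FPKM values equal count over exonic length and library total within 0.011 for all 142222 values with a count. The authors' deposited comparison table holds a mean normalized count (signal), a log2 fold change with its error, a test statistic (score) and p-values. Columns headed K were read as ELAPOR1, by its older symbol KIAA1324, and NC as negative control, the empty vector.

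Counts of 16003 of 60605 genes that passed edgeR's count filter were fitted with edgeR 4.0.16 (quasi-likelihood test, TMM factors, Benjamini-Hochberg adjustment, threshold 0.05) in R 4.3.3. Intervals of fold changes are 95% and come from the fit, with its spread between libraries. The interval of the TFPI count ratio and the floor of 3 counts for a count of 0 cover counting error only. Alternatives used other scalings, filters, DESeq2 1.42.0, limma 3.58.1 on log2 FPKM, a replicate block and each library left out. The members and lists were chosen with earlier results of these data known. The rule for named genes took the 9 genes, ELAPOR1, per list up to 4 called genes of at least 1 CPM with the largest change (or, where none was called, the tested gene with the smallest p), tested genes that overlap or flank the 9, and the 5 protein-coding genes of at least 5 CPM nearest in pattern to F7 and to F2RL1. P-values set the difference between the groups against the spread between libraries. That spread may be technical, so they may not cover variation between infections or cultures. The code was tested on simulated data. A gene of the plasminogen activation list is not reported here, though the counts of that list include it.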

Additional observations from a re-analysis of the deposited data

How the results depend on the processing

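F7 and F2RL1 were called in all 17 fits, the first included. Both were chosen from this comparison and the fits share its libraries, so these calls are no separate evidence of a change. F7 ranged from -2.27 to -1.92 and F2RL1 from 1.6 to 1.65 on the log2 scale when 1 library was left out, and F7 was -0.86 with limma on log2(FPKM + 1), whose pseudocount shrinks low genes by construction. Leaving out 1 library gave 2 to 3 of the 9 genes called, the added one being TFPI, 2723 to 3187 genes called of all tested, and 39 to 45 pathway genes. All tested genes called numbered 3427, against 2133 with limma on log2(FPKM + 1) (727 higher, 1406 lower) and 2098 with log2(FPKM + 0.1) (713 higher, 1385 lower); pathway genes called numbered 50, against 30 with each; the cause was not tested. The main split was 1607 higher and 1820 lower, and library sizes alone gave 1351 higher and 2183 lower. With the replicate block 3361 genes were called and no call among the 9 genes changed. Deviations of same-numbered libraries correlated at -0.0216, -0.0345 and -0.0209, which shows no sign of pairing. A weak pairing could go unseen in this way, and the labels give none. Of 64 named genes 51 were called, 28 of them under every alternative that gave a value; among these, GRK3 had too low an FPKM for the limma fits and ELAPOR1 was not in the fit that left it out. Leaving out 1 library ended the calls of IQGAP2, GRTP1, SERPINF2, TMPRSS4, SERPINB1, SERPINB8, SLPI, EPN1, HGS, CBL, CXCL1, ICAM1, CSF1, EGR1, JUNB and NFKB1, and limma on FPKM alone those of F13A1, PROS1, PLAU, GRK5, TMED2, LAMP1 and BAHCC1 (adjusted p 0.0503 to 0.0774). Low counts limit F2R, TFPI, TFPI2 and F2RL2. They also limit F7 in ELAPOR1 cells, where it had 14, 28 and 23 counts.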
